A study of Mus musculus with 5 samples.

Results

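The genes described are those that mark the walls of blood and lymphatic vessels, with the secreted factors that act on them. They were taken by symbol from a list of 36, made up of 20 pan-endothelial genes, 5 lymphatic genes, 3 mural genes and 8 angiogenic factor genes, out of 51912 gene IDs in the tables. Each of the 36 symbols matched 1 gene ID, and 35 passed the filter on low counts, Apln being the exception. RNA-seq was run on 5 mouse tissues labelled dorsolateral prostate. The control group held 2 mice of the genotype SV40 C3(1) T-antigen+/0 and Ghrflox/flox, and the Ghr deletion group held 3 mice that carried ROSA26Cre-ERT2+/0 besides SV40 C3(1) T-antigen+/0 and Ghrflox/flox. All were males of 7 months, all had received tamoxifen at 250 mg/kg on 5 days, and were dissected 1 month after the injections ended. Both groups therefore carried the floxed growth hormone receptor gene, the viral oncogene under the C3(1) prostate promoter and the same drug. The Cre recombinase was present in the deletion group alone, so its own presence and the loss of Ghr cannot be told apart. The ROSA26 locus is active in most cell types, endothelial cells included, so this Cre is not one limited to the epithelium. The comparison asks how vessel genes differed when the growth hormone receptor was deleted in tissue that carried the oncogene.

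Endothelial cells line every vessel and are recognised by adhesion molecules of their junctions, by receptor tyrosine kinases for vascular endothelial growth factors (VEGF) and angiopoietins, and by transcription factors of the ETS and SOX families. VEGF ligands act on Flt1, Kdr and Flt4, while angiopoietins act on Tek with Tie1 as its partner. Lymphatic endothelium shares many of these genes and adds Prox1, Flt4 and Lyve1. Pericytes and other mural cells wrap the small vessels and bear their own markers. The C3(1) T-antigen mouse is a model of prostate tumour growth, a process that draws on new vessels.

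Promoter windows of 250 bases before the RefSeq start (GRCm38.p6) were at hand for 22 of the 36 genes. The sequence AGGAAG, a form of the core that ETS factors such as Erg bind, was searched on both strands, where its reverse complement reads CTTCCT. Of the 29 windows of vessel genes, 9 (31.0%) held it, near the 9686 of all 32851 windows (29.5%). By group, it was in 8 of 13 windows of pan-endothelial genes (61.5%) and 1 of 8 angiogenic factor windows. It was absent from the 5 lymphatic and 3 mural windows. With so few windows, no enrichment is read from these shares. A gene may have several windows, as the pan-endothelial genes Egfl7 and Erg do, and a match is a description of the letters, not a binding site. Windows of 4 vessel genes that lie outside the annotated gene are printed 5′ to 3′ with the motif in capitals, to show a receptor and a coreceptor with it and a receptor and a lymphatic gene without it. Eng lies at chr2:32646345-32646594 on the plus strand and Flt1 at chr5:147726012-147726261 on the minus strand. The windows of Tek, at chr4:94739039-94739288 on the plus strand, and of Pdpn, at chr4:143299565-143299814 on the minus strand, hold no match.
Eng: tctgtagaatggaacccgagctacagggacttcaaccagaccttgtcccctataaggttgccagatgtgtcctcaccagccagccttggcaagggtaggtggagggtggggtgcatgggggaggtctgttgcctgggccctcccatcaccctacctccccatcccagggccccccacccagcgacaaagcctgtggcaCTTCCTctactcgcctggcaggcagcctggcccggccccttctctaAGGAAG
Flt1: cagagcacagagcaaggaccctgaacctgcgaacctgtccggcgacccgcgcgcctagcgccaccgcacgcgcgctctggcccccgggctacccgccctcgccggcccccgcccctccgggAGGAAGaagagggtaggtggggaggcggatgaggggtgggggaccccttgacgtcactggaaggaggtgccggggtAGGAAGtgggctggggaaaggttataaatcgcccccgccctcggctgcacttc
Tek: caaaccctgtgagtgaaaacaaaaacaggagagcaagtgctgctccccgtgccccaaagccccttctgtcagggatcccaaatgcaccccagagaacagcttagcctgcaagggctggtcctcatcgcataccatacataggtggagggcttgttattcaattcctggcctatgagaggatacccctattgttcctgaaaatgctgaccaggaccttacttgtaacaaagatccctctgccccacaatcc
Pdpn: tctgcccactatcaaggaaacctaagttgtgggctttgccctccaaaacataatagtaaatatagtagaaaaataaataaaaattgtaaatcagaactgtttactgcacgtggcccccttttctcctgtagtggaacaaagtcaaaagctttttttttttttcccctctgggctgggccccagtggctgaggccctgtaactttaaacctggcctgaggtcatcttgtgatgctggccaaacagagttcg
In Eng the matches begin 52 and 6 bases before the start, and in Flt1 they begin 129 and 53 bases before it.

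The libraries held 47656212 (control replicate 1), 13812454 (control replicate 2), 28536636 (deletion replicate 1), 37910327 (deletion replicate 2) and 33414067 counts (deletion replicate 3). Vessel genes took 0.00986% to 0.0522% of counts. The libraries differed in makeup before any vessel gene is considered. Transcripts of 8 seminal vesicle genes took 35.3% of counts in control replicate 1, 27.4% and 28.7% in deletion replicates 1 and 2, and 2.77% and 1.43% in control replicate 2 and deletion replicate 3. These shares did not rest on the same genes. Svs1 had 1828687 counts in control replicate 1 against 177 and 2 in deletion replicates 1 and 2. Svs2 had 4522293 against 5465583 and 8625770, and Svs5 and Pate4 were also high in all of these. Scaled for library size, Svs1, Svs3a, Svs3b, Svs4 and Svs6 were below both controls in every deletion library, against 10.2% of all genes. The prostate secretory gene Pbsn had 411 counts in control replicate 1 and 1 to 8 in the other libraries, so a defining marker of the labelled tissue was nearly absent from 4 of 5. Control replicate 2 and deletion replicate 3 were the most alike pair of all, with a correlation of 0.955 across genes. Levels are given as CPM, the usual unit of counts relative to library size, here adjusted with TMM factors, which ran from 0.491 to 1.61.

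Ghr itself was at 14.4 and 31.3 CPM in the control mice against 8.13, 20.9 and 12.1 CPM in the deletion mice. The groups overlapped, with a log2 fold change of -0.73 (SE 0.515) and an adjusted p of 0.995 in edgeR's quasi-likelihood test, so the labels could not be checked firmly against the targeted gene.

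The endothelial genes had lower levels in the deletion mice as a group. With TMM factors all 20 pan-endothelial genes had a fold change below 0, from -1.86 to -0.66 and at a median of -1.30 on the log2 scale, while 49.6% of the 18615 genes tested lay below 0. The count below 0 was also 20 with library totals and with TPM centred on the median of all genes, and 14 with the deposited TPM uncentred. The summed level of the 20 was 145 and 195 CPM in the control mice against 90.1, 55.2 and 89.1 CPM in the deletion mice, which is 2.17-fold higher in the controls. In 17 of the 20, every deletion library was below both controls, against 10.2% of all genes tested, and this was so for 2 with library totals and 0 with uncentred TPM. No gene of the whole table passed a Benjamini-Hochberg adjusted p of 0.05 in edgeR (0% called), while 915 had an unadjusted p under 0.05, limma-voom called 0 and DESeq2 called 164. Of the 35 vessel genes tested, 11 had an unadjusted p under 0.05 in edgeR, all lower, against 3.23% of all genes lower at that level. DESeq2 called 1 of the 35, Plvap, where it called 0.688% of all genes lower. The SE of a vessel gene ran from 0.327 to 1.37 on the log2 scale. In tissue RNA, fewer endothelial cells and less RNA per endothelial cell cannot be told apart.

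**Figure D1:**
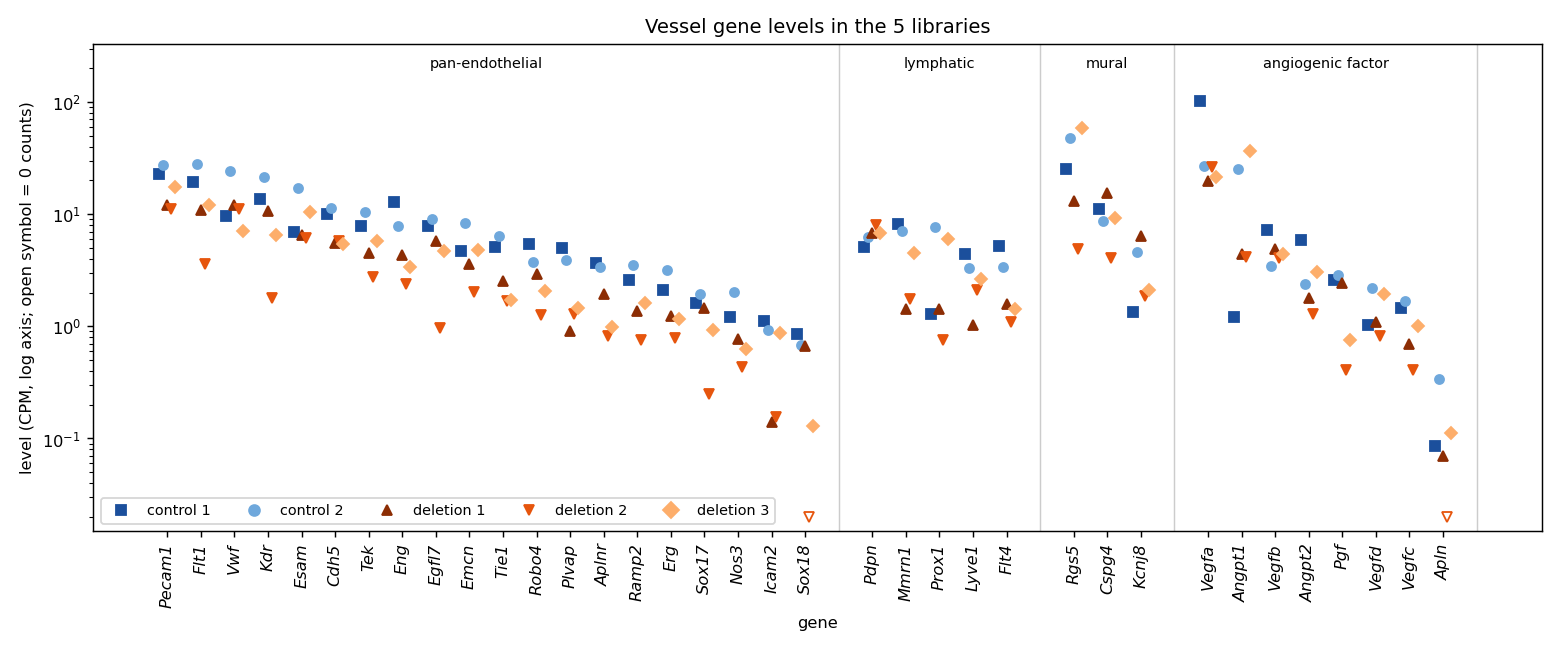
Level of each of the 36 vessel genes in CPM on a log axis, by group of genes, with 1 symbol per library (blue squares and circles, controls 1 and 2, and brown to light orange, deletion libraries 1 to 3; open symbols, 0 counts). In the pan-endothelial panel the 2 controls lie above all 3 deletion libraries for 17 of 20 genes, while the mural genes and several angiogenic factors mix.

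Among the receptors, the VEGF receptor Flt1 was at 19.2 and 28.2 CPM in the control mice against 10.9, 3.63 and 12.0 CPM in the deletion mice. Its log2 fold change was -1.42 (SE 0.538, adjusted p = 0.991 in edgeR). Kdr, the main signalling receptor for VEGF-A, was at 13.8 and 21.3 CPM against 10.6, 1.79 and 6.51 CPM. Deletion replicate 2 held the lowest value of both receptors. Tek, the angiopoietin receptor, was at 7.87 and 10.4 CPM in the control mice against 4.52, 2.76 and 5.81 CPM in the deletion mice. Its partner Tie1 was at 5.13 and 6.44 CPM against 2.56, 1.69 and 1.71 CPM, a log2 fold change of -1.54 (SE 0.453, adjusted p = 0.991 in edgeR). For Tie1 the gap between the groups was wider than the range within either of them.

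Eng, the coreceptor for TGF-beta family ligands on endothelium, lies on chromosome 2 from 32646595 to 32682669 and was at 12.8 and 7.89 CPM in the control mice against 4.35, 2.38 and 3.36 CPM in the deletion mice. The means were 10.3 ± 3.47 (SD, n = 2) and 3.36 ± 0.983 (SD, n = 3). Its log2 fold change came to -1.62 (SE 0.452, with a 95% interval of -2.70 to -0.54) with an adjusted edgeR p of 0.991. Exons of Eng overlap those of Fpgs on the other strand, which had 149 to 848 counts per library, and the strand setting of the counting is not given in the sources used here. The apelin receptor Aplnr was at 3.68 and 3.39 CPM against 1.93, 0.814 and 0.984 CPM (log2 fold change -1.51, SE 0.565). Robo4, a guidance receptor that steadies the endothelial barrier, was at 5.48 and 3.73 CPM in the control mice against 2.94, 1.25 and 2.06 CPM in the deletion mice. Ramp2, the partner of the adrenomedullin receptor, was at 2.61 and 3.49 CPM against 1.37, 0.752 and 1.63 CPM. Ramp2 shares exon sequence with Vps25 on the same strand, whose 425 to 1245 counts per library were higher than its own.

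Plvap forms the diaphragms that span endothelial pores and lies on chromosome 8 from 71497765 to 71511752. It was at 5.05 and 3.87 CPM in the control mice against 0.911, 1.28 and 1.47 CPM in the deletion mice. The means were 4.46 ± 0.831 (SD, n = 2) and 1.22 ± 0.283 (SD, n = 3), and the lowest control stood well above the highest deletion library. The log2 fold change of -1.86 (SE 0.486, with a 95% interval of -3.03 to -0.70) was the most negative of the 35 vessel genes tested. Its adjusted p was 0.985 in edgeR and 0.0392 in DESeq2.

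The junction protein Pecam1, also known as CD31, was the pan-endothelial gene of highest mean CPM, at 22.9 and 27.7 CPM in the control mice against 12.1, 11.2 and 17.4 CPM in the deletion mice. Its log2 fold change was -0.89 (SE 0.327, adjusted p = 0.991 in edgeR). Cdh5, the cadherin of endothelial junctions, was at 10.1 and 11.3 CPM against 5.54, 5.73 and 5.48 CPM. The deletion libraries of Cdh5 were close together, with a mean of 5.58 ± 0.134 CPM (SD, n = 3) against 10.7 ± 0.867 CPM (SD, n = 2). Icam2, an adhesion molecule for leukocytes, was at 1.11 and 0.920 CPM in the control mice against 0.140, 0.157 and 0.872 CPM in the deletion mice, with deletion replicate 3 near the controls. Esam and Emcn, a junction protein and a sialomucin, had log2 fold changes of -0.66 and -0.90 and overlapped between the groups. The value for Esam was 0.15 without control replicate 2.

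Vwf, the clotting glycoprotein that endothelial cells store, was at 9.67 and 24.1 CPM in the control mice against 12.1, 11.2 and 7.05 CPM in the deletion mice. Its groups overlapped, with control replicate 1 among the deletion libraries, and its log2 fold change of -0.74 was 0.06 without control replicate 2. Egfl7, a secreted matrix protein of endothelium, was at 7.91 and 9.15 CPM against 5.82, 0.971 and 4.70 CPM. Its exons overlap those of Agpat2 on the other strand, which had 52 to 210 counts. Nos3, which makes nitric oxide, was at 1.20 and 2.03 CPM in the control mice against 0.771, 0.438 and 0.631 CPM in the deletion mice.

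The endothelial transcription factors Erg, Sox17 and Sox18 had mean levels of 0.712, 0.581 and 0.331 CPM per kilobase of effective length. Erg, an ETS factor, was at 2.10 and 3.20 CPM in the control mice against 1.23, 0.783 and 1.17 CPM in the deletion mice, for a log2 fold change of -1.32 (SE 0.531, adjusted p = 0.991 in edgeR). Sox17 was at 1.63 and 1.94 CPM against 1.47, 0.251 and 0.928 CPM, with deletion replicate 1 just under the controls. Sox18 was at 0.856 and 0.678 CPM in the controls, at 0.666 and 0.130 CPM in deletion replicates 1 and 3, and had 0 counts in deletion replicate 2, which allows up to 0.0940 CPM. Its SE of 1.33 was among the widest of the list.

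**Figure D2:**
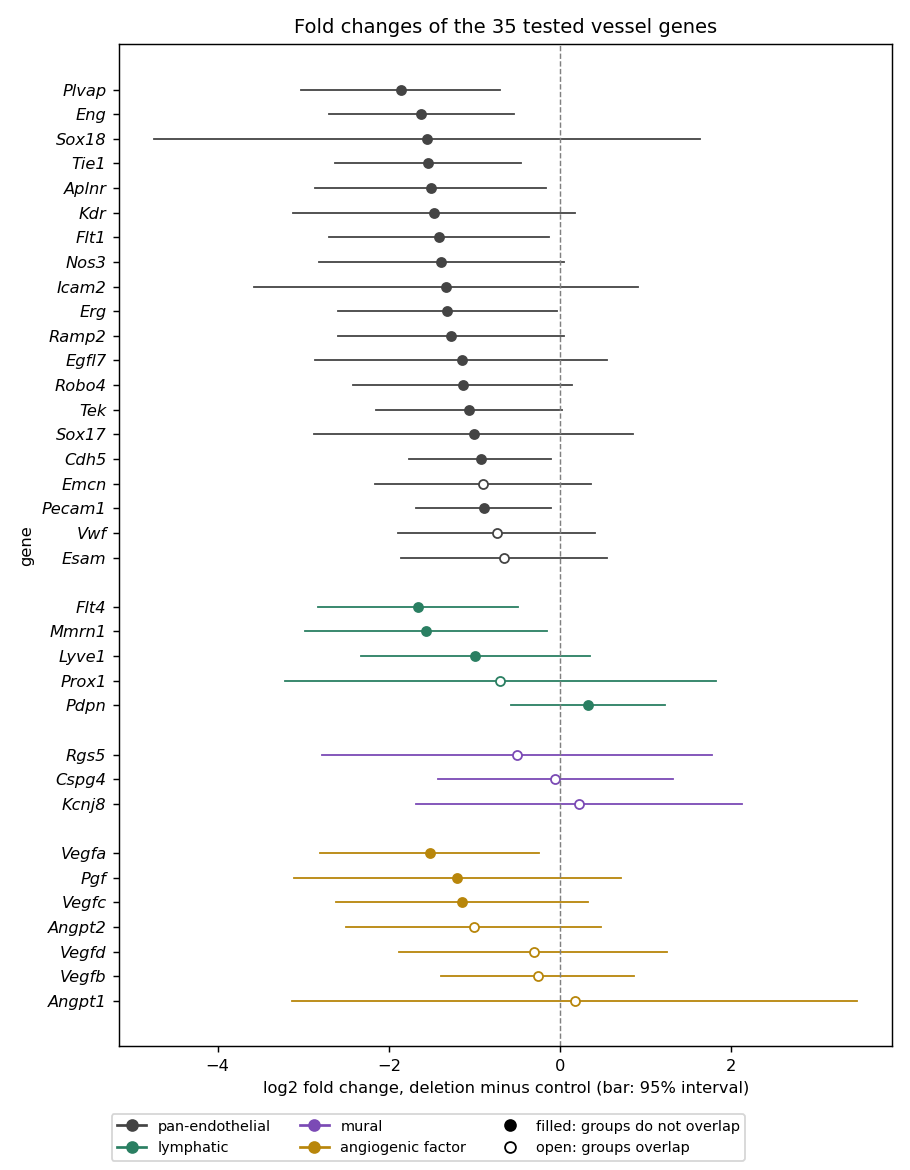
Log2 fold change (deletion minus control) of the 35 tested vessel genes with its 95% interval from edgeR, coloured by group of genes, filled where the groups do not overlap and open where they do. All 20 pan-endothelial points lie between -1.86 and -0.66, and Angpt1 has the widest interval, -3.13 to 3.47.

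Control replicate 2 held the highest CPM of 14 pan-endothelial genes and control replicate 1 that of 6, while deletion replicate 2 held the lowest of 16. As a share of the pan-endothelial sum, which no library scaling can alter, Tie1 made up 3.55% and 3.30% in the control mice against 2.84%, 3.06% and 1.92% in the deletion mice. Tek made up 5.44% and 5.33% against 5.02%, 4.99% and 6.52%, and Erg 1.45% and 1.64% against 1.36%, 1.42% and 1.31%. Tie1 and Erg were the 2 of 20 whose share was lower in every deletion library, and the other 18, Tek among them, overlapped. The share of all genes lower on that scale was not computed, so nothing is read from this count.

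The lymphatic genes differed among themselves. Of 5 tested, 4 had a fold change below 0, 3 were below both controls in every deletion library and 1 was above both, against 10.2% and 9.43% of all genes, and the median log2 fold change was -0.99, or -0.11 with uncentred TPM. Flt4, the VEGF-C receptor of lymphatic endothelium, was at 5.26 and 3.39 CPM in the control mice against 1.58, 1.10 and 1.43 CPM in the deletion mice. The log2 fold change of Flt4 was -1.66 (SE 0.488, with a 95% interval of -2.83 to -0.49, adjusted p = 0.991 in edgeR). Mmrn1, a multimerin of lymphatic endothelium and platelets, was at 8.21 and 7.07 CPM against 1.44, 1.75 and 4.51 CPM (log2 fold change -1.57, SE 0.593). The hyaluronan receptor Lyve1, which some macrophages also express, was at 4.41 and 3.34 CPM against 1.02, 2.13 and 2.67 CPM.

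Prox1, the transcription factor that sets lymphatic identity, followed another order. It was at 1.28 and 7.65 CPM in the control mice against 1.44, 0.752 and 6.01 CPM in the deletion mice, high in control replicate 2 and deletion replicate 3 and low in the other 3. Its log2 fold change was -0.70 (SE 1.05), and 1.09 without control replicate 2. Pdpn, a mucin-like protein of lymphatic endothelium that fibroblasts, basal epithelium and other cells also make, was at 5.13 and 6.29 CPM in the control mice against 6.80, 7.96 and 6.79 CPM in the deletion mice. It was the only one of the 35 with every deletion library above both controls, by a log2 fold change of 0.33 (SE 0.375, with a 95% interval of -0.57 to 1.23). Set against the pan-endothelial sum, Pdpn came to 3.55% and 3.22% in the control mice against 7.55%, 14.4% and 7.62% in the deletion mice. Kcnj8 and Vegfd were the other vessel genes higher against that sum in every deletion library, but they overlapped between the groups in CPM. The sum itself was lower in every deletion library, so a gene of unchanged level comes out higher against it. The share of all genes higher on that scale was not computed, so nothing is read from these ratios. The lymphatic sum as a whole came to 16.8% and 14.2% of the pan-endothelial sum in the control mice against 13.6%, 24.8% and 24.0% in the deletion mice, so those groups overlapped.

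The mural genes overlapped between the groups without exception among the 3 tested, with a median log2 fold change of -0.06 that turned to 0.02 with library totals and 0.77 with uncentred TPM. Rgs5, a regulator of G-protein signalling in pericytes, was at 25.3 and 47.6 CPM in the control mice against 13.1, 4.89 and 58.9 CPM in the deletion mice. Its lowest and highest values were both in the deletion group, and its log2 fold change of -0.51 became 0.01 on leaving out control replicate 2 and -2.03 on leaving out deletion replicate 3. Cspg4, the NG2 proteoglycan of pericytes, was at 11.2 and 8.62 CPM against 15.4, 4.04 and 9.19 CPM. Kcnj8, a potassium channel subunit of pericytes, was at 1.33 and 4.60 CPM against 6.34, 1.88 and 2.12 CPM. The log2 fold change of Cspg4, -0.06, became 0.15 on leaving out control replicate 1 and 0.31 on leaving out deletion replicate 2. That of Kcnj8, 0.22, became -0.42 on leaving out control replicate 1 and -0.55 on leaving out deletion replicate 1. The endothelial median of -1.30 lies within the 95% interval of each of these 3 genes.

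Of the 7 angiogenic factor genes tested, 6 had a fold change below 0, against 49.6% of all genes, and 3 were below both controls in every deletion library, against 10.2%. Their median log2 fold change was -1.01 with TMM factors, -0.30 with library totals and 0.15 with uncentred TPM. Vegfa, the main VEGF ligand, was at 102 and 26.7 CPM in the control mice against 19.8, 26.2 and 21.3 CPM in the deletion mice. Control replicate 1 stood far above the other 4, among which the remaining control lay just above deletion replicate 2. The log2 fold change of -1.52 (SE 0.534, adjusted p = 0.991 in edgeR) was -0.25 without control replicate 1. The VEGF-C ligand gene Vegfc was at 1.45 and 1.69 CPM against 0.701, 0.407 and 1.00 CPM. Placental growth factor, Pgf, was at 2.57 and 2.90 CPM in the control mice against 2.42, 0.407 and 0.761 CPM in the deletion mice.

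Angpt1, the Tek ligand made by perivascular cells, was at 1.20 and 25.5 CPM in the control mice against 4.38, 4.17 and 36.4 CPM in the deletion mice. Like Prox1 it was high in control replicate 2 and deletion replicate 3 alone, and its log2 fold change of 0.17 had an SE of 1.37. That value became -0.77 without control replicate 1, 3.63 without control replicate 2 and -1.66 without deletion replicate 3. Vegfb was at 7.19 and 3.44 CPM against 4.87, 4.04 and 4.40 CPM, and its log2 fold change of -0.26 was 0.37 without control replicate 1. Angpt2, which endothelial cells release and which can oppose Angpt1, and Vegfd overlapped between the groups with log2 fold changes of -1.01 and -0.31, the latter 0.32 without control replicate 2. Apln, the apelin ligand, had at most 0.339 CPM in any library and was not tested.

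**Figure D3:**
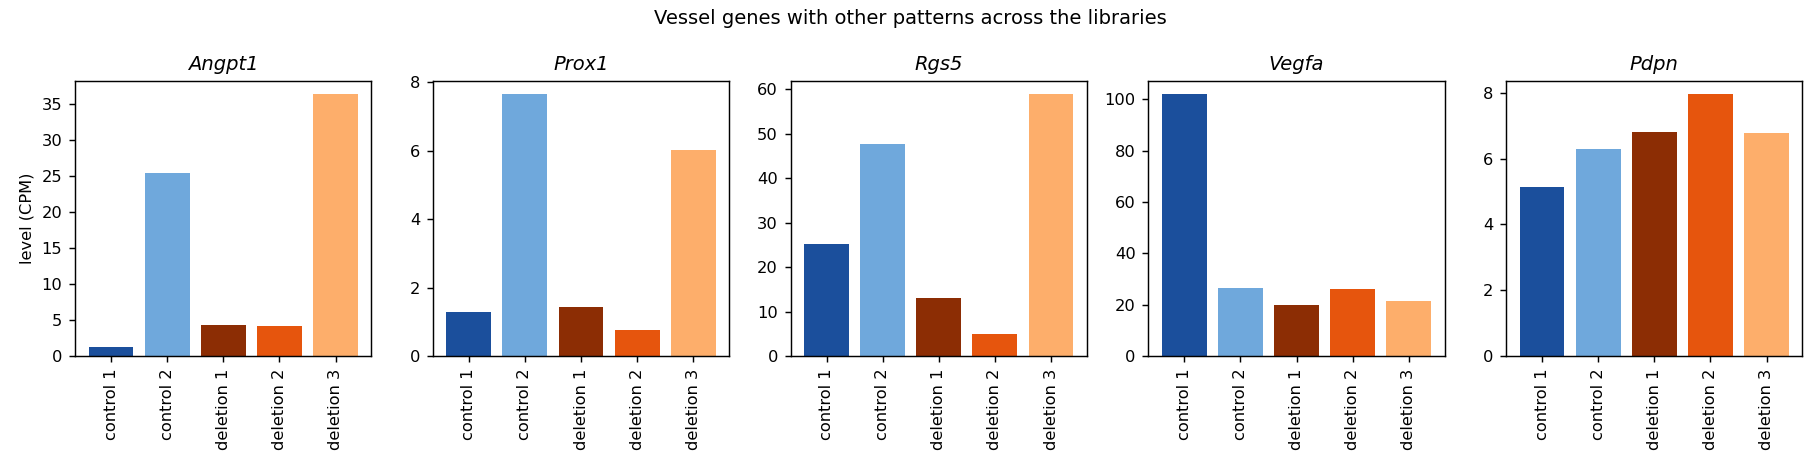
Level in CPM of 5 vessel genes in each library (1 bar per library, linear axes from 0, a separate axis for each gene). Angpt1, Prox1 and Rgs5 are highest in control 2 and deletion 3, Vegfa stands at 102 CPM in control 1 alone, and Pdpn is above both controls in every deletion library.

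Levels of different genes were compared as CPM per kilobase of effective length, averaged over the 5 libraries. On that scale Vegfa was highest at 23.7, followed by Egfl7 at 9.69, Rgs5 at 7.73, Esam at 6.72 and Pecam1 at 6.52. Nos3 at 0.265 was the lowest of the tested vessel genes. The values of Rgs5, Esam and Pecam1 lie closer to each other than the libraries of any of these 3 genes do.

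Other genes of the vessel system were taken from lists of related function. The 15 further endothelial genes all had a fold change below 0, with a median of -1.07 on the log2 scale, 8 below both controls in every deletion library (10.2% of all genes) and 6 at an unadjusted edgeR p under 0.05 (3.23% of all genes, lower). With uncentred TPM, 11 of the 15 were below 0. Ptprb, the phosphatase that acts on Tek and Cdh5, had the highest mean CPM and the smallest p of that list. It was at 37.8 and 43.9 CPM in the control mice against 20.1, 10.4 and 20.3 CPM in the deletion mice (fold change on the log2 scale -1.27, SE 0.367). The sum of the 20 pan-endothelial genes over that of these 15 was 1.37 and 1.40 in the control mice against 1.50, 1.76 and 1.38 in the deletion mice.

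The artery and Notch genes were mixed, with 8 of 12 below 0 (3 with uncentred TPM), a median of -0.49 and 4 below both controls in every deletion library, against 10.2% of all genes. Gja5, a connexin of arterial endothelium, was at 1.07 and 1.45 CPM in the control mice against 0.526, 0.251 and 0.353 CPM in the deletion mice (fold change on the log2 scale -1.74, SE 0.641). Efnb2, an ephrin of arteries that epithelial cells also make, was at 34.4 and 103 CPM against 73.9, 132 and 102 CPM, and overlapped. Of 8 VEGF coreceptors and modulators, 4 had a fold change below 0 and 4 above, or 1 and 7 with uncentred TPM. Nrp1, a VEGF coreceptor, was at 17.0 and 39.3 CPM against 12.4, 5.61 and 14.6 CPM (log2 fold change -1.37, SE 0.529). Thbs1, a matrix protein that restrains angiogenesis, was at 12.6 and 78.8 CPM against 17.6, 13.0 and 44.9 CPM, and its log2 fold change of -0.86 was 0.99 without control replicate 2.

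Of 7 genes of activated endothelium, 4 had a fold change above 0, with a median of 0.85 on the log2 scale, which was -0.36 with median-centred TPM, where 2 were above 0. Sele, the E-selectin that endothelium displays when activated by cytokines, was at 0 and 0.484 CPM in the control mice against 3.15, 3.01 and 1.86 CPM in the deletion mice. The log2 fold change of Sele came to 3.47 (SE 1.23, with a 95% interval of 0.52 to 6.42) with an adjusted edgeR p of 0.991. All 3 deletion libraries were above both controls for Sele, which was so for 9.43% of all genes. The 0 in control replicate 1 allows up to 0.128 CPM, so the fold rests on few counts in the control mice. Icam1, the leukocyte adhesion molecule and the gene of highest mean CPM in the list, was at 5.52 and 12.6 CPM against 5.96, 29.7 and 13.3 CPM, and overlapped.

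Of 6 further lymphatic genes, 4 were tested and all 4 had a fold change below 0, with a median of -0.50, while 2 did with library totals and 1 with uncentred TPM. Ccl21a, the chemokine of lymphatic endothelium that draws dendritic cells, was at 8.30 and 4.07 CPM in the control mice against 0.806, 0.438 and 0.742 CPM in the deletion mice. The log2 fold change was -3.21 (SE 0.566), with an adjusted p of 0.985 in edgeR and a DESeq2 adjusted p of 9.47e-05. Near-identical copies of Ccl21a exist in the mouse genome, so its reads may be split among them and its value is uncertain. Nr2f2, a venous and lymphatic transcription factor that is also made by stroma, was at 75.3 and 64.8 CPM against 61.1, 50.8 and 63.7 CPM. Among the 6 further mural genes tested of 9, 4 were below 0, against 49.6% of all genes, with a median of -0.31, and 1 was with uncentred TPM. Of the 6, 2 were below both controls in every deletion library, against 10.2% of all genes. The untested genes of that list were also below both controls, at 10 counts or fewer in any library. Pdgfrb, the growth factor receptor of pericytes and fibroblasts, was at 9.93 and 14.9 CPM in the control mice against 5.36, 1.10 and 5.35 CPM in the deletion mice (fold change on the log2 scale -1.65, SE 0.685). Abcc9, the partner of the Kcnj8 channel, was at 11.3 and 38.3 CPM against 31.6, 29.6 and 32.4 CPM, with a log2 fold change of 0.33, or -0.30 without control replicate 1.

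The hypoxia response list, which includes Vegfa, was split with 5 of 11 below 0 and a median of 0.05, or 1.24 with uncentred TPM. Hif1a, the oxygen-regulated transcription factor, averaged 138 ± 65.3 CPM (SD, n = 2) in the control mice and 106 ± 22.8 CPM (SD, n = 3) in the deletion mice, and the groups overlapped. Its log2 fold change of -0.38 was 0.20 without control replicate 1. Bnip3, a mitophagy gene that HIF induces and the other gene of the list with an unadjusted edgeR p under 0.05, was named after its values were seen. It was at 11.7 and 23.1 CPM against 46.5, 73.8 and 26.0 CPM. Every deletion library was above both controls for Bnip3 and below them for Vegfa. That is 1 of 11 genes each way (9.09%), near the 9.43% higher and 10.2% lower of all genes, so nothing is read from it.

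The summed levels of leukocyte and of fibroblast markers were lower in every deletion library beside those of the endothelial genes, while the smooth muscle, epithelial and basal epithelial sums overlapped. The 8 leukocyte markers summed to 77.6 and 117 CPM in the control mice against 48.3, 35.8 and 54.8 CPM in the deletion mice. All 7 of them that were tested had a fold change below 0, 5 with no overlap, against 10.2% of all genes. Cd79a had 0 counts in 4 libraries, and 1 of the 7 was below 0 with uncentred TPM. The 8 fibroblast markers summed to 399 and 596 CPM against 296, 99.6 and 244 CPM, all 8 below 0 with a median of -1.64 and 5 with no overlap, against the same 10.2%. The 6 smooth muscle markers summed to 1780 and 3100 CPM against 4400, 1200 and 2730 CPM, and the 6 epithelial markers to 1030 and 1500 CPM against 906, 1950 and 1830 CPM, both overlapping. Among the epithelial markers, the keratins Krt19 and Krt18 did not overlap, the first lower and the second higher in the deletion mice. That is 1 of 6 each way, against 10.2% lower and 9.43% higher of all genes, so nothing is read from it. The 4 basal epithelial markers summed to 85.8 and 62.4 CPM against 51.5, 15.9 and 84.0 CPM, all 4 below 0 with a median of -1.30, or 2 with library totals or uncentred TPM. Of these 4, Krt14 and Krt15 were lower with no overlap, against 10.2% of all genes. DESeq2 called Krt15 lower with an adjusted p of 0.018, where it called 0.688% of all genes lower. The 8 mitosis genes, a sign of dividing cells, summed to 233 and 44.3 CPM in the control mice against 6.73, 10.8 and 5.12 CPM in the deletion mice. The 2 controls thus also lay far apart. All 8 had a fold change below 0, with a median of -3.79, and did not overlap, against 10.2% of all genes. In uncentred TPM 7 were lower with no overlap, against 0.688% of all genes. DESeq2 called 6 of them lower, against 0.688% of all genes.

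Ratios of these sums within a library do not depend on how libraries are scaled. The pan-endothelial sum over the leukocyte sum was 1.86 and 1.66 in the control mice against 1.87, 1.54 and 1.63 in the deletion mice. Over the fibroblast sum it was 0.362 and 0.327 against 0.305, 0.555 and 0.365, so both of these ratios overlapped between the groups. Over the smooth muscle sum it was 0.0810 and 0.0630 in the control mice against 0.0205, 0.0461 and 0.0326 in the deletion mice. Over the epithelial sum it was 0.141 and 0.130 against 0.0995, 0.0284 and 0.0487. Over the basal epithelial sum it was 1.68 and 3.13 against 1.75, 3.46 and 1.06, and over the mitosis sum 0.621 and 4.40 against 13.4, 5.12 and 17.4. Relative to smooth muscle and epithelial markers the endothelial sum was thus lower in every deletion library, relative to mitosis genes it was higher, and relative to leukocyte, fibroblast and basal markers the groups overlapped. The part that differences in tissue makeup had in the endothelial result was not tested.

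**Figure D4:**
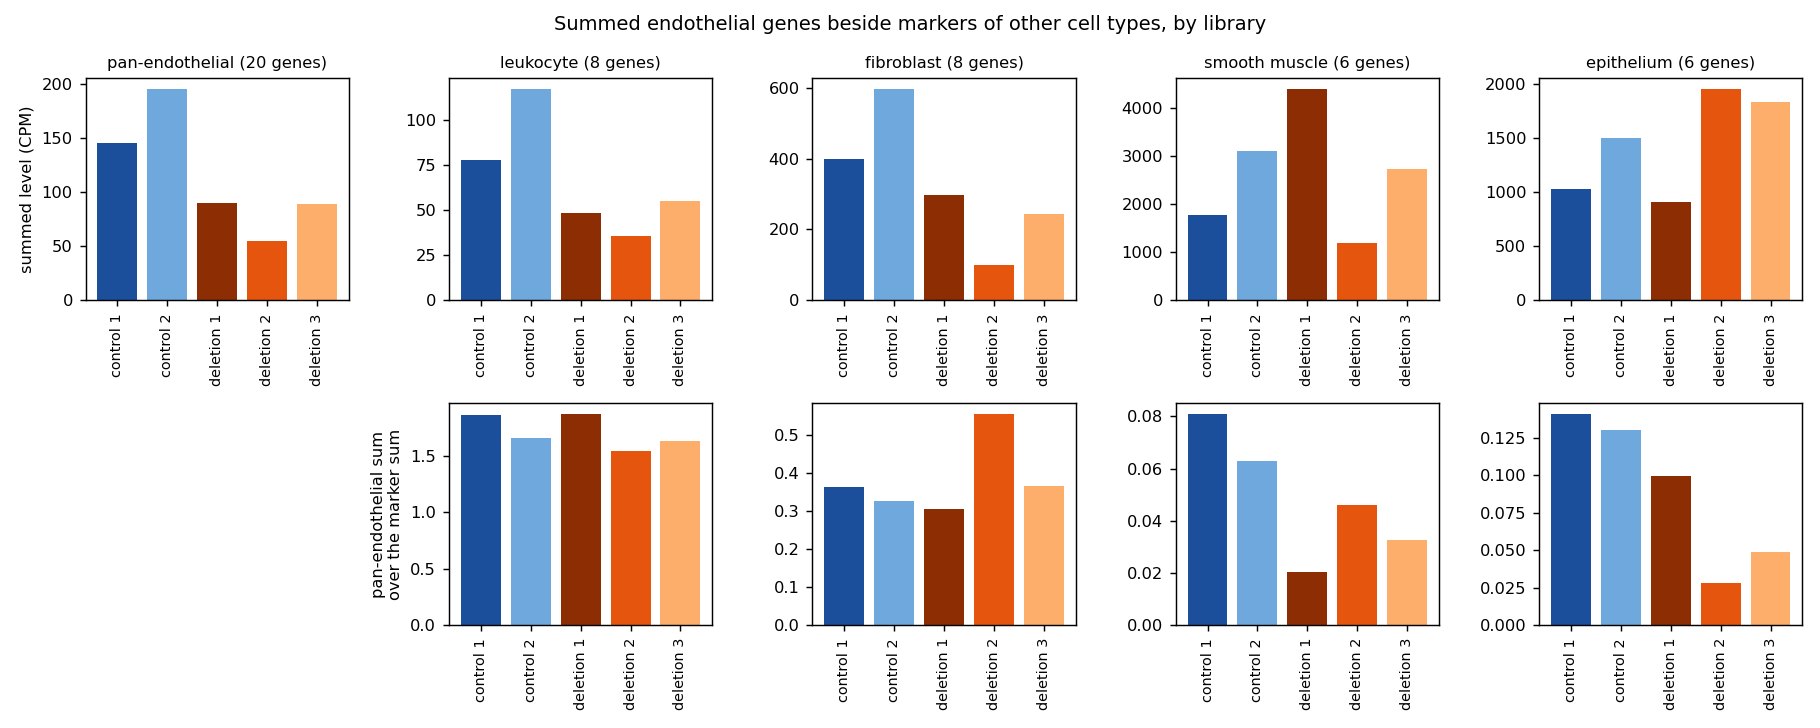
Top, summed CPM of the 20 pan-endothelial genes and of 4 marker lists in each library, and bottom, the pan-endothelial sum divided by each marker sum (1 bar per library, axes from 0). The ratio to leukocyte markers stays between 1.54 and 1.87 in all 5 libraries, while the ratios to smooth muscle and epithelial markers are lower in the 3 deletion libraries than in both controls.

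With the deposited TPM taken as they stand, the median of the endothelial list stayed below 0, at -0.33, but 6 of its genes turned and the groups overlapped. In TPM, Pecam1 was at 1.31 and 9.50 in the control mice against 2.26, 2.61 and 11.95 in the deletion mice, and Plvap was at 0.45 and 2.18 against 0.27, 0.45 and 1.54. On that scale each of the 36 vessel genes overlapped between the groups, where 0.688% of all genes were lower and 4.99% higher with no overlap. The median of all tested genes was 0.911 higher in the deletion group on the log2(TPM + 0.1) scale, which understates the change of low genes, and 0.227 higher with library totals in place of TMM factors. Relative to that median, the pan-endothelial median was -1.24 with TPM, -1.20 with library totals and -1.30 with TMM factors. The pan-endothelial genes Pecam1, Cdh5, Vwf, Emcn, Esam and Robo4 had a fold change above 0 in uncentred TPM.

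**Figure D5:**
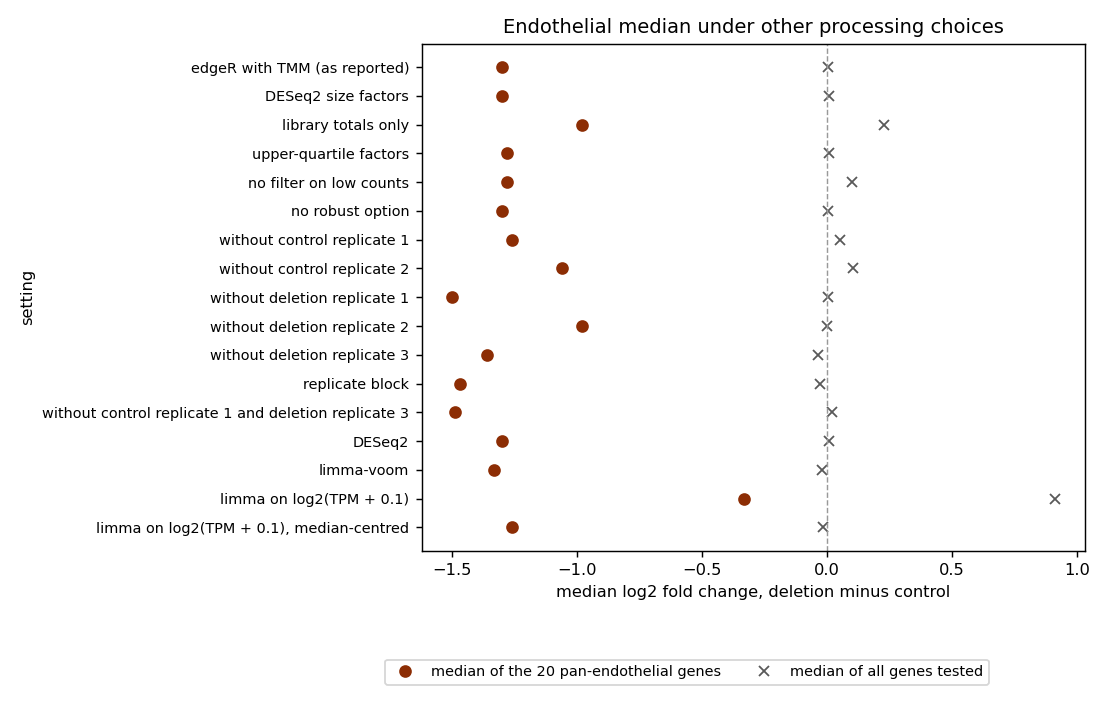
Median log2 fold change (deletion minus control) of the 20 pan-endothelial genes (filled circles) and of all genes tested (crosses) under each processing choice. The endothelial median lies below that of all genes under every choice drawn, and both are displaced to the right with uncentred TPM, to -0.33 and 0.911.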

How the data were processed

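Total RNA of 5 tissues was sequenced from stranded libraries, per the labels' protocols. Reads were handled with STAR 2.5.3a, RSEM 1.3.0 and bcl2fastq 2.20.422 on GRCm38, per the submitters' processing notes. Neither the annotation release nor the strand setting is given in the sources used here. Per the file headers, the authors deposited RSEM's expected counts, its TPM (scaled by gene length and by the library's other genes) and effective lengths.

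Rounded expected counts of all 5 libraries entered 1 fit in R 4.3.3 with edgeR 4.0.16: filterByExpr, TMM, robust glmQLFit, then glmQLFTest on the group alone, Benjamini-Hochberg over 18615 genes, called at an adjusted p under 0.05. DESeq2 1.42.0 and limma 3.58.1 were alternatives. The fit was tested on counts simulated from its own means and dispersions. It called 0 of 150 genes changed 2-fold and 48.7% of 150 changed 8-fold, against 0.0574% of unchanged genes. An adjusted p above the threshold thus says little about a change of 2-fold. Symbols matched 99.5% of IDs, and positions are from GENCODE M21. Intervals of fold changes are from the edgeR fit and include the spread between libraries, while the floor of 3 counts covers counting error only. The series' design text calls the samples biological replicates.

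The vessel genes, lists and rules were chosen with earlier results of these data known. Named were genes with no overlap between groups, the 3 highest of each group in mean CPM and, per further list, the smallest p and highest CPM.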

Additional observations from a re-analysis of the deposited data

How the results depend on the processing

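Both the scaling and single libraries of either group moved results. Genes called over the whole table numbered 0 as reported, 46 with library totals, 164 with DESeq2, 8 with the replicate block, 12 with TPM, 2 with median-centred TPM and, in an alternative added after seeing the data, 85 without control replicate 1 and deletion replicate 3 together. Leaving out 1 library gave 0 to 48 calls, the 48 in the absence of control replicate 2, and 2 in that of deletion replicate 3. The pan-endothelial median stayed below 0 under every alternative run, from -1.50 to -0.98 on leaving out 1 library and -0.33 with TPM. Genes of that list below 0 numbered 20 as reported and 18 to 20 on leaving out 1 library. Pan-endothelial genes below both controls numbered 17 as reported, 2 with library totals, 0 with TPM, 20 without control replicate 1 and deletion replicate 3, and 17 to 20 on leaving out 1 library. The lymphatic median was -1.60 with the replicate block, -0.11 with TPM and -1.70 to -0.67 on leaving out 1 library. The mural median ran from -0.55 to 0.31 and the angiogenic factor median from -1.44 to -0.76 on leaving out 1 library, and the latter was -0.30 with library totals and 0.15 with TPM. Vessel genes with a fold change below 0 numbered 32 of 35 as reported, 21 with TPM and 27 to 33 on leaving out 1 library.

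Of 768 values of single genes under an alternative, 723 kept their direction and side of the threshold, 42 reversed and 3 passed the threshold. With uncentred TPM, log2 fold changes turned to 0.21 for Pecam1, 0.24 for Cdh5, 0.38 for Vwf, 0.09 for Emcn, 0.47 for Esam, 0.02 for Robo4, 0.14 for Prox1, 0.77 for Cspg4, 0.87 for Vegfb, 0.60 for Vegfd, 0.15 for Angpt2, 0.34 for Ghr, 0.36 for Thbs1, 0.78 for Nr2f2 and 0.76 for Hif1a. With library totals they turned to 0.29 for Cspg4, 0.24 for Vegfb, 0.04 for Nr2f2 and 0.04 for Hif1a, with median-centred TPM to -0.01 for Kcnj8 and with the replicate block to -0.45 for Angpt1. Without control replicate 1 and deletion replicate 3 together they were 0.17 for Cspg4, -0.17 for Kcnj8, 0.37 for Vegfb, -2.58 for Angpt1, -0.33 for Abcc9 and 0.30 for Hif1a. On leaving out 1 library in turn, or those 2 together, the values ran from -1.25 to 0.06 for Vwf, -1.46 to 0.15 for Esam, -2.81 to 1.09 for Prox1, -2.41 to 0.01 for Rgs5, -0.57 to 0.31 for Cspg4, -0.55 to 1.37 for Kcnj8, -0.70 to 0.37 for Vegfb, -1.20 to 0.32 for Vegfd, -2.58 to 3.63 for Angpt1, -2.37 to 0.99 for Thbs1, -0.33 to 1.47 for Abcc9 and -0.80 to 0.30 for Hif1a. The replicate numbers of the titles are not known to mark shared animals or days. Deviations of same-numbered samples from their group means correlated at 0.131 and -0.136. With 2 controls, their deviations mirror each other (correlation -1), so these values cannot decide whether the numbers mark pairs. The fit with the replicate numbers as a block changed no call of a vessel gene. The cause of these shifts was not tested.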
